A study of Mus musculus with 8 samples.

Results

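The 35 genes described here encode the integrin chains on the array and the laminin chains other than Lama1, Lamb1 and Lamc1. They were chosen by name: a probe that was no control belonged to the set when its gene name was Itga followed by a number or letters, Itgb1 to Itgb8, Itgbl1, or Lama, Lamb or Lamc with a chain number, and the probe of a gene that was brightest on average over all 8 arrays stood for it. The rule took 49 of the 55681 probes and 35 of the 36406 gene names, of which 18 were integrin alpha chains, 9 were integrin beta chains (Itgbl1, a beta-like protein without a membrane anchor, among them) and 8 were laminin chains. Choosing the brightest probe did not use the difference between the conditions. The samples were E14Tg2A.4 cells, a mouse embryonic stem (ES) cell line with no engineered allele named for these arrays. In 4 untreated cultures no retinoic acid was given, and 4 cultures were collected after 72 h with 1 µM all-trans retinoic acid (RA) in medium lacking leukemia inhibitory factor. The treatment thus differed from the untreated state in RA, and, where the untreated medium held the factor, in that too, so the contributions of RA and of its medium cannot be told apart. RNA was hybridised as 1 colour to Agilent mouse gene expression arrays, and the comparison asked which genes RA-treated ES cells expressed at another level.

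Integrins are cell surface receptors made of an alpha and a beta chain, and the pair decides which matrix protein or cell surface counter-receptor is bound. Inside the cell, the beta tail is joined to actin through talin, kindlins and the ILK complex. Laminins are trimers of an alpha, a beta and a gamma chain that form the network of basement membranes, and early embryonic cells use them as an adhesive substrate through integrins with the beta-1 chain.

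Of the 35 genes, 16 rose after RA, 3 fell and 16 did not pass the test (limma, adjusted p under 0.05 over all probes and a fold change above 1.5). Over all gene names, 13.9% were called higher and 22.1% lower, or 36.1% either way. Among the chains that rose were Itga3, Itga4, Itga8, Itga9, Itga11, Itgav, Itgb1, Itgb4, Itgb6, Itgb8, Lama2, Lama4, Lama5, Lamb2 and Lamb3, and the chains that fell were Itgb7, Itgal and Lama3. Of the integrin chains, 10 of 27 rose and 2 fell; of the laminin chains, 6 of 8 rose and 1 fell. Of the 35 genes, 22 were well above background on all 8 arrays and 28 on all arrays of at least 1 condition. The median log2 fold change (RA minus untreated) was 0.54 over the 35 genes and -0.28 over all gene names. This general shift was seen with the scaling on the 75th percentile of each array, and its cause was not tested. Quantile normalization makes the distributions of the arrays alike, so its median of -0.0026 over all probes was set by the method. Under quantile normalization 16 genes of the set were again called higher and 3 lower. All 4 RA arrays lay above all 4 untreated arrays for 14 of the 35 genes, against 15.2% of all gene names, and below them for 4, against 25.2%.

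**Figure D1:**
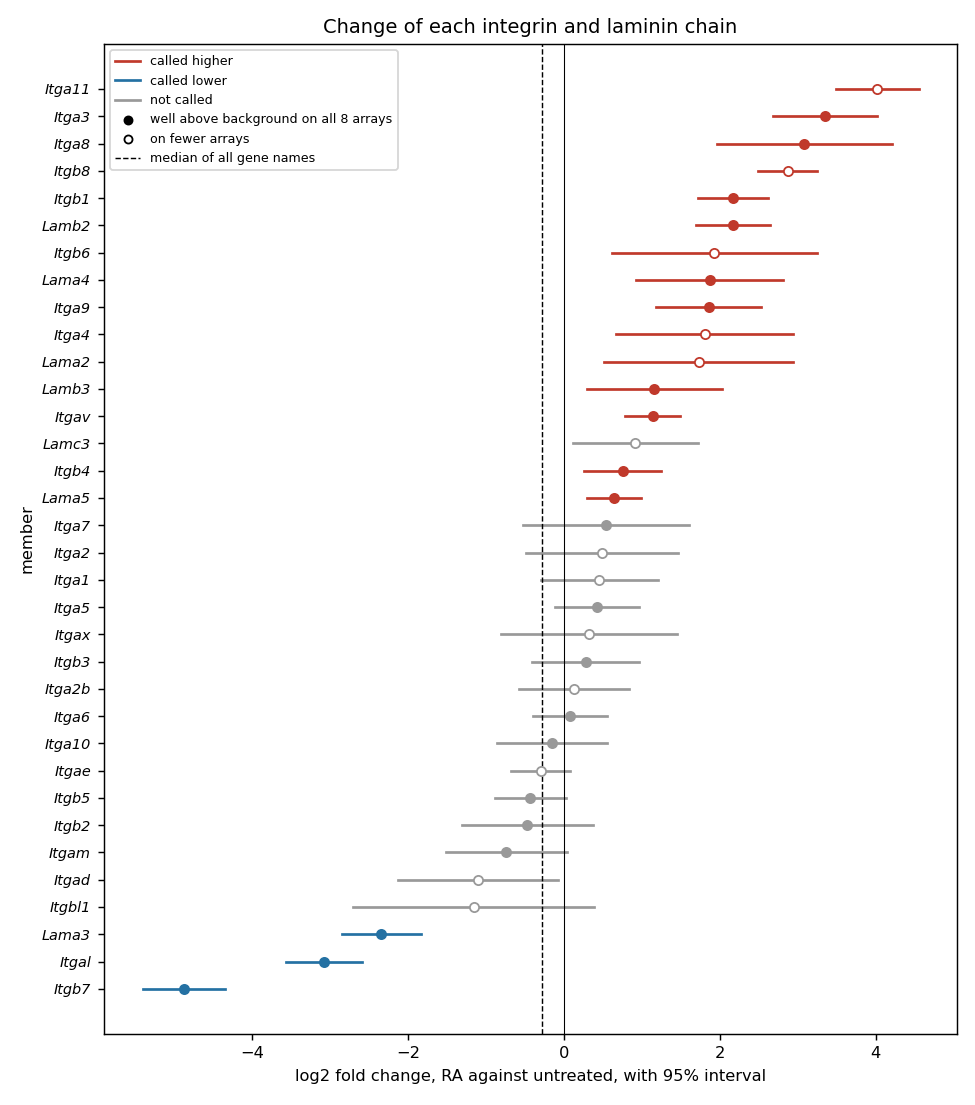
Log2 fold change of 34 of the genes, RA against untreated, with 95% intervals from limma (4 arrays per condition), sorted by size. The changes run from -4.88 for Itgb7 to 4.02 for Itga11, and filled points mark genes that were well above background on all 8 arrays.

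The markers of the labelled ES cells were measured on the untreated arrays and were lower after RA. All 10 pluripotency genes on the list used (Pou5f1 and Nanog among them) were well above background on every array and fell, against 22.1% of all gene names. By contrast, 10 of 12 genes of extraembryonic endoderm and 10 of 11 of mesenchyme and smooth muscle rose, against 13.9% of all gene names. Arrays of the same condition correlated at 0.979 to 0.994, and 56.7% to 62.7% of the spots of an array were well above background. In cultures measured as a whole, fewer cells of a type and less RNA per cell cannot be told apart. Each of the 2 slides carried 2 untreated and 2 RA arrays. With the slide as a block 15 genes of the set were called higher and 3 lower. Within slide 1 these counts were 10 and 4, and within slide 2 they were 10 and 3, and all 19 called genes kept their sign within both slides.

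The sequences of the 2 called beta chains whose probe crosses a splice junction show what was hybridised. Each 60-base probe is given 5′ to 3′ as on the array and spans more genomic bases than its own length, 5896 for Itgb1 at chr8:131250081-131255976 on the plus strand and 4616 for Itgb6 at chr2:60438632-60443247 on the minus strand of mm9. The other 30 probes with a contiguous position and the 3 further spanning probes are not printed.
Itgb1: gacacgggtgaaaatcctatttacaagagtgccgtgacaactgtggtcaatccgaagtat
Itgb6: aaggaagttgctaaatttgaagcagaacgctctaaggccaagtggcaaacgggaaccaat

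Promoters are printed for the alpha chains with the largest rise on the scale used here (Itga11 and Itga3), for their beta partner Itgb1, and for Itgb7, which fell most. Each is the 250 bases before a RefSeq start site (GRCm38.p6), with GGGCGG, the Sp1 box, in capitals on either strand. Of the 35 genes, 23 had a RefSeq promoter, with 26 windows in all, since Itga3, Itgb6 and Lamb3 each had a pair.
Itga11 (chr9:62677605-62677854, plus strand): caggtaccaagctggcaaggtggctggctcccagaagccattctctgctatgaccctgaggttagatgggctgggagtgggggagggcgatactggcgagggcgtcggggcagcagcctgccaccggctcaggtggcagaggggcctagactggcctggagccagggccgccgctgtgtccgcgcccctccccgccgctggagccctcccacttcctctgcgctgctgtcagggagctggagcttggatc
Itga3 (chr11:95076715-95076964, minus strand): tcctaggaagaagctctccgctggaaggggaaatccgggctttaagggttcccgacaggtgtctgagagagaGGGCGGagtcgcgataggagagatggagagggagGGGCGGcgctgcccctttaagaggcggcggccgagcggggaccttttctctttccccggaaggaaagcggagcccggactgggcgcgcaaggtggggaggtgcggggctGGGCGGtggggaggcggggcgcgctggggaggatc
Itgb1 (chr8:128685404-128685653, plus strand): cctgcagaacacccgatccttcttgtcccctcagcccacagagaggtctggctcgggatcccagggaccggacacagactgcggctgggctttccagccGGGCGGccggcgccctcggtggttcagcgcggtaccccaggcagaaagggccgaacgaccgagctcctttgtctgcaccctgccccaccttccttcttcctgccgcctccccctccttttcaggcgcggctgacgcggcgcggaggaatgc
Itgb7 (chr15:102231936-102232185, minus strand): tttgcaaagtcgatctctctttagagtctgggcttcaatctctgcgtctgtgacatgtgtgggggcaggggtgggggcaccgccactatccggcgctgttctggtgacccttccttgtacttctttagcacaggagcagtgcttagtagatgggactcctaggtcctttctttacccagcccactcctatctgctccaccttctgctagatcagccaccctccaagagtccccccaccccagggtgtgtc

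The Sp1 box was in 9 of the 26 windows and in 32.7% of the 32851 promoters of the table. It occurred 3 times in the Itga3 window shown and 1 time in that of Itgb1, and not in those of Itga11 and Itgb7. AGGTCA, a form of the hexamer of retinoic acid response elements, was in 0 of the 26 windows on either strand, against 14% of all promoters. Direct repeats of AGGTCA spaced by 5 or by 2 bases were thus not found either. Other forms of the hexamer were not searched, so their presence in these windows is not known from this count. TATAAA was in 0 windows (12.4% of all promoters) and AGATAA, bound by GATA factors, in that of Itgax alone (9.99%). These matches describe letters in a short window only.

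Of the 4 collagen-binding alpha chains 1 rose, of the 3 laminin-binding chains 1, and of the 4 RGD-binding chains 2, with group medians of 0.47, 0.54 and 0.78, beside 13.9% of all gene names called higher. Itga11, a collagen receptor of mesenchymal cells, gave log2 intensities of -5.33, -5.09, -4.91 and -5.31 on the untreated arrays 1 to 4 and of -1.13, -1.75, -0.69 and -0.99 on the RA arrays 1 to 4 (all log2 levels are relative to the 75th percentile of the array). Every RA array was far above every untreated array, and 2 of the 4 untreated spots were well above background. The log2 fold change was 4.02 (SE 0.23, 16.2-fold, adjusted p = 6.43e-06, limma). The size of this change differed between scales, and the cause was not tested. With normexp background correction it was 2.34 and in the deposited log2 values 2.47. Both were below the values of Itga3 (3.19 and 3.24) and Itga8 (2.67 and 2.73) on the same scales. The other collagen-binding alpha chains, Itga1, Itga2 and Itga10, did not pass the test, with log2 fold changes from -0.15 to 0.49. Their 95% intervals, together spanning -0.86 to 1.46, all lay below that of Itga11 (3.48 to 4.55). Itga2 was well above background on 0 untreated arrays and 1 RA array (adjusted p = 0.367, limma).

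Among the laminin-binding alpha chains, Itga3 rose and Itga6 did not pass the test. Itga3 read -1.61, -0.30, -0.42 and -0.38 without and 2.54, 2.60, 2.95 and 2.61 with RA, so the conditions were well apart, with untreated array 1 below the other 3. Its log2 fold change was 3.35 (SE 0.29, 10.2-fold, adjusted p = 4.27e-05, limma). Itga6, the main laminin receptor chain of ES cells, lay between 4.77 and 5.28 on the untreated and between 4.87 and 5.58 on the RA arrays, with a 95% interval of the log2 fold change from -0.40 to 0.56. Itga7, the chain best known from muscle, was at 0.54 (95% interval -0.53 to 1.60), and its RA arrays split, with 0.11 and 0.76 on arrays 1 and 2 and -1.07 and -1.51 on arrays 3 and 4.

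Of the alpha chains that recognise the RGD sequence, Itga8 and Itgav rose. Itga8, the nephronectin receptor chain, read -2.46, -3.27, -0.54 and -2.20 on untreated arrays and 1.02, 1.07, 0.77 and 1.01 on RA arrays. The RA arrays were close together (SD 0.13) and above all untreated ones, which were more spread (SD 1.15). Its log2 fold change was 3.09 (SE 0.49, 8.49-fold, adjusted p = 0.00116, limma). Itgav, the chain that pairs with most RGD-binding beta chains, went from -1.15, -0.94, -0.96 and -1.12 to 0.41, 0.00, -0.11 and 0.07. These groups did not overlap either, and the log2 fold change was 1.14 (SE 0.16, 2.20-fold, adjusted p = 0.0005, limma), with 1.37 at a second probe, also called. Within slide 2 alone Itgav lost its call at 0.98. Itga5, the fibronectin receptor chain, had a 95% interval from -0.11 to 0.96, and Itga2b, the platelet fibrinogen receptor chain, from -0.57 to 0.83.

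The related chains Itga4 and Itga9, which bind VCAM1, osteopontin and tenascin among others, were both called higher. Itga9 read -0.82, -0.35, -1.39 and 0.03 on the untreated and 1.08, 0.96, 1.45 and 1.41 on the RA arrays, with no overlap and a log2 fold change of 1.86 (SE 0.30, 3.62-fold, adjusted p = 0.00118, limma). Itga4 read -4.47, -6.46, -4.28 and -5.27 against -2.94, -2.77, -4.18 and -3.37. The groups came close, RA array 3 lying just above untreated array 3, and only 2 untreated spots were well above background. Its log2 fold change was 1.80 (SE 0.50, adjusted p = 0.0197, limma), and with normexp background correction it was 0.67, still called. The call was lost without RA array 1 or RA array 2 (range over all arrays left out 1.36 to 2.09), in the mean of its probes (0.78, adjusted p = 0.0569, limma) and with treat against a 1.5-fold change (adjusted p = 0.0965, limma), and a second Itga4 probe was not well above background on any array.

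**Figure D2:**
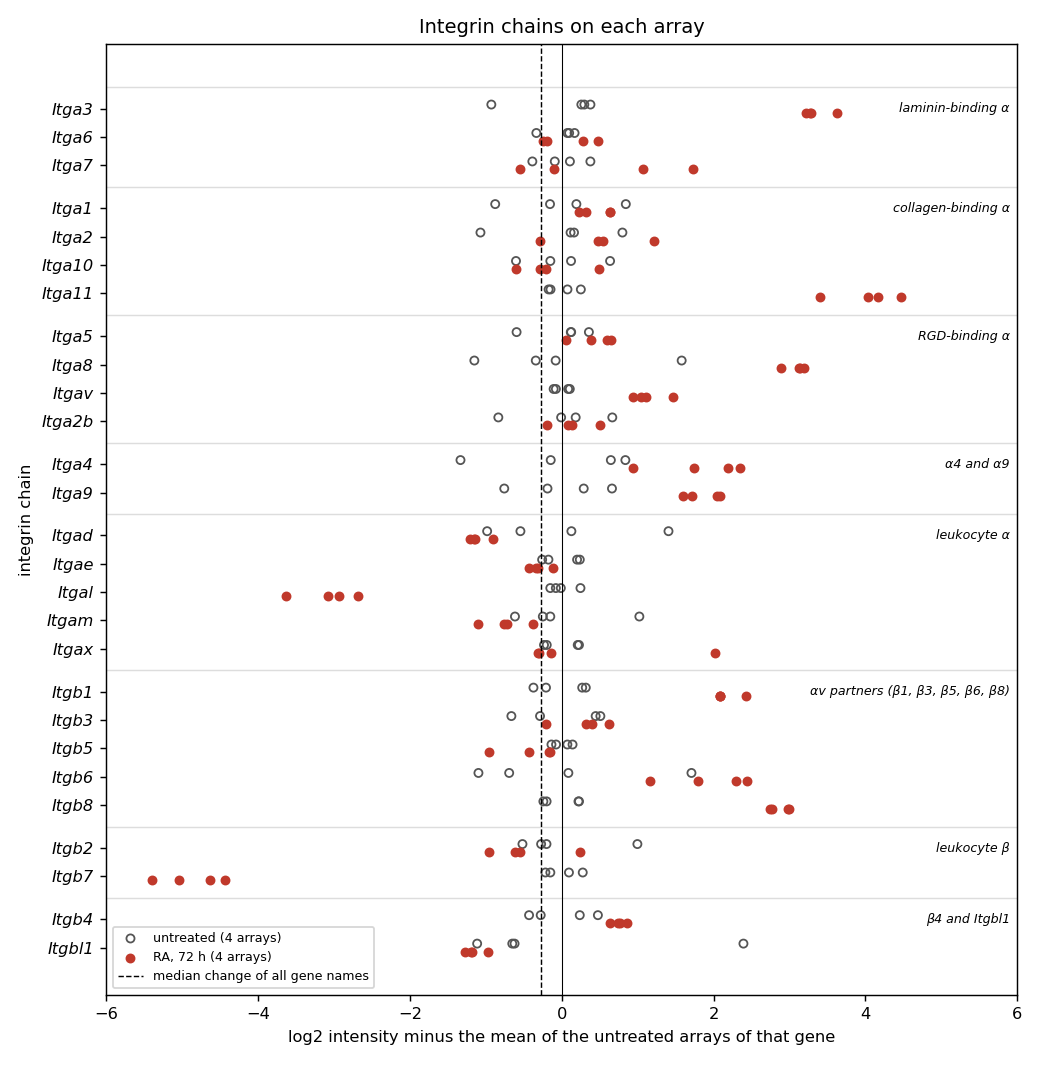
Log2 intensity of each of the 27 integrin chains on each array, minus the mean of that chain's 4 untreated arrays (open circles untreated, filled circles RA, dashed line at the median change of all gene names, -0.28). The RA arrays of Itga11, Itga3, Itga8, Itgb8 and Itgb1 stand to the right of all untreated arrays, those of Itgb7 and Itgal to the left.

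Itgb1, the beta chain shared by most matrix-binding alpha chains, rose with a small spread. It read 0.29, 0.46, 0.98 and 0.93 on the untreated arrays and 3.10, 2.75, 2.74 and 2.75 on the RA arrays. The RA arrays all exceeded the untreated ones, with RA array 1 slightly above the other 3. The log2 fold change was 2.17 (SE 0.20, 4.50-fold, adjusted p = 5.27e-05, limma) at the junction probe printed above and 1.67 at a second Itgb1 probe, which was called too.

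The other beta chains that pair with Itgav did not move alike. Itgb8, a chain that with Itgav activates latent TGF-beta, was not well above background on any untreated array (-7.49, -7.91, -7.95 and -7.49) and was so on all 4 RA arrays (-4.96, -4.73, -4.95 and -4.72). The RA arrays were tightly grouped, and Itgb8 after RA was 6.60-fold higher against a floor (adjusted p = 6.42e-06, limma). The floor was the lowest signal of any probe well above background on each untreated array, or the probe's own signal where that was higher. This fold change is no lower limit. With normexp background correction the log2 fold change of Itgb8 was 0.43, under the fold threshold, and in the authors' log2 values 0.64. Itgb6, the epithelial chain with the same ligand, read -6.46, -7.64, -4.84 and -7.24 against -4.75, -5.38, -4.10 and -4.25. Untreated array 3 lay among the RA arrays, and 1 untreated and 3 RA spots were well above background. Its log2 fold change was 1.93 (SE 0.58, adjusted p = 0.0281, limma), and the call was lost without untreated array 1, 2 or 4, without RA array 1, 3 or 4, within slide 1 (1.15) and with normexp (0.39). A second Itgb6 probe was not well above background on any array. Itgb3 and Itgb5 did not pass the test. The log2 fold change of Itgb5, a vitronectin receptor chain, was -0.43 (95% interval -0.89 to 0.03) although all its RA arrays were below its untreated ones. That of Itgb3 was 0.28 (95% interval -0.41 to 0.97). A second, dimmer Itgb3 probe gave 1.32 (95% interval -0.02 to 2.67) and was not called. It was well above background on 1 untreated and 3 RA arrays.

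Itgb4, the hemidesmosome chain that pairs with Itga6, read -1.23, -0.56, -0.32 and -1.07 on the untreated and -0.16, -0.03, -0.05 and 0.06 on the RA arrays. The groups did not overlap, but the step between them was small, with a log2 fold change of 0.75 (SE 0.22, 1.68-fold, adjusted p = 0.0229, limma). The call was lost when untreated array 1 or 4, or RA array 2, 3 or 4, was left out (0.61 to 0.91 over all arrays left out) and within either slide (0.73 and 0.78). Itgbl1 was well above background on 1 untreated and 0 RA arrays and was not called (adjusted p = 0.204, limma), with a fitted log2 change of -0.36 once untreated array 2 was left out. A second Itgbl1 probe was called lower at -0.77 (adjusted p = 0.0296, limma) but was not well above background on any array.

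Of the 5 alpha and 2 beta chains best known from leukocytes, 1 of each fell (Itgal and Itgb7) and the others were not called, beside 22.1% of all gene names called lower. Itgb7, the beta chain of gut-homing lymphocyte integrins, had the largest fall in the set: it read 2.10, 2.60, 2.17 and 2.41 on the untreated arrays and -3.08, -2.12, -2.32 and -2.72 on the RA arrays. The signal was well above background on all 8 arrays, with a wide gap between the conditions. The log2 fold change was -4.88 (SE 0.23, 29.5-fold lower, adjusted p = 2.94e-06, limma), and -4.25 in the deposited log2 values. Itgal, the alpha chain of LFA-1, read -1.85, -1.92, -1.78 and -1.52 and then -4.85, -5.40, -4.45 and -4.71. Again no RA array reached an untreated one, and the log2 fold change was -3.09 (SE 0.21, 8.49-fold lower, adjusted p = 1.4e-05, limma). The other 2 Itgal probes were also called lower, at -3.53 and, for a probe to another transcript (AK154115), at -0.88. In the authors' log2 values the fall of the brightest Itgal probe was smaller, at -1.72.

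Of the chains that pair with these, Itga4 (a partner of Itgb7) was called higher as given above, and Itgb2 and Itgae did not pass the test. Itgb2, which pairs with Itgal, had a log2 fold change of -0.47 (95% interval -1.31 to 0.37) and overlapping groups. Itgae, the other partner of Itgb7, was not well above background on any array, the only gene of the set for which this held. Itgam was measured on all arrays, with 2.02, 2.12 and 1.65 on untreated arrays 2 to 4, 3.29 on untreated array 1 and 1.17 to 1.90 after RA. Its 3 probes had log2 fold changes of -0.74, -0.64 and -0.39, none of them called, and the call appeared only for their mean. Itgad and Itgax were each well above background on 1 of 8 arrays and were not called. For Itgad that array was an untreated one (adjusted p = 0.0857, limma). Its fitted change ranged from -0.64 to -1.43 when 1 array was left out, with a call gained without untreated array 2, and was -1.91 (called) within slide 1, -0.30 within slide 2 and -0.20 in the deposited log2 values. For Itgax the array was an RA one, and the adjusted p was 0.618 (limma).

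Markers of leukocytes were set beside these chains. Of 8 on the array, 0 were called higher and 2 lower (25%, near the 22.1% of all gene names called lower), Cd3e among them, and Ptprc, Lyz2 and Tyrobp were not well above background on any array. Cd3e fell by 1.67 on the log2 scale. The summed linear signal of the list, in units of the 75th percentile of each array, was 3.03 to 3.69 on the untreated and 1.52 to 1.82 on the RA arrays. Cd3e made up 71.7% to 82.6% of it on the untreated and 40.4% to 58.0% on the RA arrays, and without Cd3e the sum was 0.557 to 1.04 and 0.661 to 0.907, so that the conditions overlapped. Of 5 platelet markers, set beside Itga2b, 1 was called higher and 1 lower (20% each, near the 13.9% and 22.1% of all gene names). The markers of mesenchyme and smooth muscle, set beside Itga11, Itga8 and Itgb1, summed to 4.38 to 6.40 on the untreated and 283 to 525 on the RA arrays, and those of extraembryonic endoderm to 88.7 to 128 and 243 to 282, or without Sparc, the brightest of them, to 2.67 to 4.53 and 32.9 to 43.3. Of 7 epithelial markers, set beside Itgb4, Itgb6 and the epithelial laminin chains, 2 were called higher (Krt8 and Krt18), 28.6% against 13.9% of all gene names, and their summed signal went from 39.8 to 59.8 without RA to 465 to 600 with it. Without these keratins the sum was 30.5 to 40.6 and 34.0 to 44.4, with overlap. Of 7 endothelial markers, set beside Lama4, 0 were called higher and 3 lower (42.9% against 22.1% of all gene names). The part of such cells in the rise of any chain was not tested.

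Among the laminin chains, Lamb2 and the alpha chains Lama2, Lama4 and Lama5 rose. Lamb2, the beta chain of synaptic and vascular basement membranes, read -0.37, 0.35, 0.07 and 0.40 on untreated arrays and 2.41, 2.29, 1.96 and 2.46 on RA arrays. The groups were far apart relative to their spread, with a log2 fold change of 2.17 (SE 0.21, 4.49-fold, adjusted p = 7.17e-05, limma). Lama4, the alpha chain of endothelial and mesenchymal laminin, read -3.26, -3.88, -1.94 and -2.79 against -0.86, -0.66, -1.08 and -1.79. RA array 4 was only just above untreated array 3, and the log2 fold change was 1.87 (SE 0.41, 3.65-fold, adjusted p = 0.00672, limma), with the call lost within slide 1 at 1.27. Lama2, the muscle laminin chain, read -5.11, -3.92, -3.03 and -4.32 against -2.64, -3.51, -1.47 and -1.85. These groups overlapped, since untreated array 3 exceeded RA array 2. The log2 fold change was 1.73 (SE 0.53, adjusted p = 0.0313, limma) and a second probe gave 2.73, also called. With normexp background correction it was 0.87 and in the deposited log2 values 1.06, both still called. The Lama2 call was lost without untreated array 1, 2 or 4, without RA array 1, 3 or 4 (1.39 to 2.11 over all arrays left out) and within either slide.

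Lama5, the widespread alpha chain of the early embryo, was high throughout and rose by a small step. It read 4.43, 4.61, 4.90 and 4.65 on the untreated and 5.39, 5.29, 5.09 and 5.37 on the RA arrays. The groups did not overlap, and the log2 fold change was 0.64 (SE 0.15, 1.56-fold, adjusted p = 0.0101, limma). Leaving out untreated array 1 took the change to 0.57, below the fold threshold, and the call was also lost within either slide (0.72 and 0.56).

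Lama3 and Lamb3, an alpha and a beta chain of the epithelial laminin of hemidesmosomes, did not move in one direction. Lama3 fell from -0.50, -1.44, -0.55 and -0.59 to -3.07, -3.08, -3.07 and -3.25. All RA arrays were nearly equal and lay below the untreated ones, of which array 2 was lowest. The log2 fold change was -2.35 (SE 0.22, 5.08-fold lower, adjusted p = 6.49e-05, limma), with -1.76 in the deposited log2 values. A second Lama3 probe was well above background only on the untreated arrays. Its signal with RA was 12.9-fold lower against the floor, which is no lower limit of the change. Lamb3 read -3.37, -1.65, -1.58 and -2.54 against -1.35, -0.98, -1.28 and -0.89. The gap between untreated array 3 and RA array 1 was narrow, and the log2 fold change was 1.16 (SE 0.38, 2.23-fold, adjusted p = 0.0411, limma). The Lamb3 call was lost when any array other than untreated array 2 or 3 was left out (0.79 to 1.39 over all arrays left out), within either slide, with the slide as a block (adjusted p = 0.0533, limma) and under quantile normalization. Lamc3, a gamma chain, was well above background on 1 untreated and 3 RA arrays and was not called, at 0.92 (95% interval 0.11 to 1.72). It gained a call without untreated array 3 (1.27) and under quantile normalization (1.25).

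**Figure D3:**
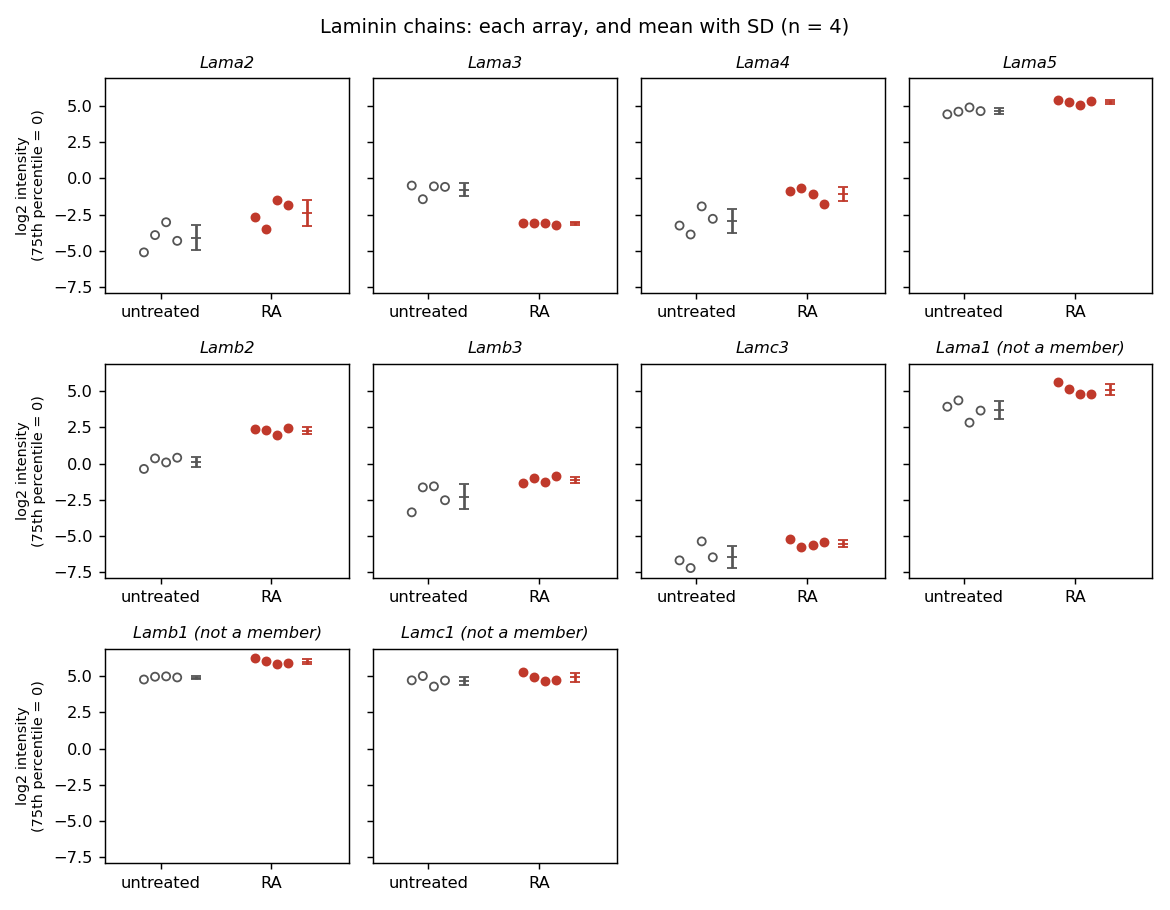
Log2 intensity of 7 laminin chains of the set and of Lama1, Lamb1 and Lamc1 on each array (open circles untreated, filled circles RA), with the mean and SD of 4 arrays beside them. Lama3 steps down while Lamb2 and Lama4 step up, and levels in different panels come from different probes and are not comparable.

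The 3 chains of the first embryonic laminin, which complete many of these trimers, gave log2 fold changes of 1.41 for Lama1 and 1.10 for Lamb1, both called higher, and of 0.23 for Lamc1 (adjusted p = 0.377, limma), which did not pass the test. The collagen IV chains Col4a1 and Col4a2 rose by 3.79 and 4.02 on the log2 scale, while Nid1 and Nid2, the nidogens that link laminin to collagen IV, changed by -1.42 and -1.55. In all, 5 of 9 basement membrane genes were called higher, against 13.9% of all gene names, and 2 lower, a share (22.2%) close to the 22.1% of all gene names.

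Among 18 integrin ligands other than laminins, 8 were called higher (13.9% of all gene names) and 5 lower (22.1% of all gene names). Vtn (vitronectin) was not well above background on any untreated array and gave a 334-fold higher signal with RA against the floor used for Itgb8. Tnc (tenascin-C) was 26.2-fold and Edil3, an RGD protein, 20.5-fold higher in the same way, and none of these values is a lower limit. The Edil3 value depended on RA array 2 (-5.12, against -2.98 to -1.71 on the other RA arrays), being 33.8-fold without it and 15.4-fold without RA array 4. Npnt (nephronectin), the ligand of the Itga8 receptor, was measured on all arrays and rose by 4.11 on the log2 scale. The ligands of the Itgal receptor, Icam1 and Icam2, named after their values were seen, changed by -2.78 and -3.46 on the log2 scale. Of the ligands of Itga4 and Itga9, also named after their values were seen, Spp1 (osteopontin) changed by -3.20 and Vcam1 was not called (0.81, 95% interval -0.71 to 2.34).

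Of 28 genes for proteins that activate integrins or build adhesion plaques inside the cell, 16 were called higher and 3 lower, to be read against the same 13.9% and 22.1%. Parva (alpha-parvin), which binds ILK, rose by 4.92 on the log2 scale, Tgfb1i1 (Hic-5) by 3.92 and Zyx (zyxin) by 3.00. Parvg (gamma-parvin), a form known from blood cells, fell by 3.22 and was well above background on 1 RA array only. Of 11 membrane partners and laminin receptors that are no integrins, 6 were called higher and 2 lower. The largest changes were 2.74 for Cd47, the integrin-associated protein, 2.61 for the syndecan Sdc2, -1.63 for Sdc4 and 1.50 for Sdc1. Over the 66 genes of these lists on the array, 35 were called higher and 12 lower (53.0% and 18.2%, against 13.9% and 22.1% of all gene names), with a median log2 fold change of 0.93 against -0.28 over all gene names.

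**Figure D4:**
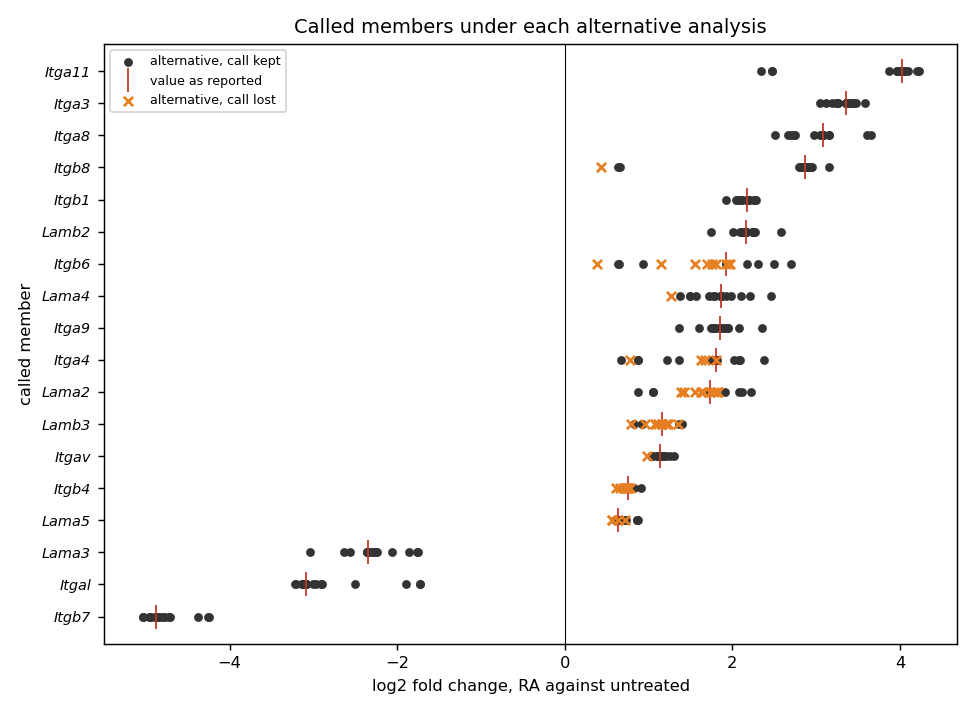
Log2 fold changes of 18 called chains as reported (vertical bars) and under the alternative analyses (dots where the call was kept, crosses where it was lost). The fold change above 2 is not among the alternatives shown. The 9 chains with dots alone are Itga11, Itga3, Itga8, Itga9, Itgb1, Lamb2, Lama3, Itgal and Itgb7, and no point of the 18 chains crosses 0.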

How the data were processed

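RNA of 8 cultures of E14Tg2A.4 ES cells, 4 untreated and 4 treated with RA, was measured on 1-colour Agilent arrays (Cy3). What the authors deposited for each array is a text file of Agilent Feature Extraction 10.7.3.1, whose processed intensity per spot is background-corrected and not yet normalized across arrays. They also deposited log2 values of the same arrays, with like distributions, whose normalization is not given in the sources used here. Positions in the scanner output are on mm9. Groups and replicate numbers come from the labels, and no array was left out.

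Processed intensities were put on the log2 scale in R 4.3.3 and set relative to the 75th percentile of the 59305 spots of that array that were no controls. The 3671 control spots and 124 to 145 outlier spots per array were left out, 0 spots were saturated, and spots of a probe were averaged, leaving 55681 probes with no filter on dim ones. RA and untreated arrays were compared in limma 3.58.1 (lmFit, eBayes), with Benjamini-Hochberg adjustment over all probes, and a gene was called at an adjusted p under 0.05 and a fold change above 1.5, the thresholds in the series text. The p-values rest on 4 cultures per condition, which the series text calls biological replicates, and this number of arrays limits the precision. A gene took its brightest probe. Where no array of 1 condition had a probe well above background, the change of a called gene was given against a floor. The mean of the brighter condition was set against a value on each array of the dimmer one. That value was the higher of the lowest signal well above background and the signal of the probe. Some probes with brighter signals were not well above background, so such a change is no lower limit.

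The genes, gene lists and tests were chosen with earlier results of these data known. Every gene chosen by name is given, in full where called, except 1 gene of the set and 1 marker that are counted but not reported here by name. In each list of related genes, up to 4 called genes with the largest change that were well above background on all arrays of a condition are named, with Lama1, Lamb1 and Lamc1. Lists held adhesion proteins (28 genes on the array), membrane partners (11), ligands (18) and basement membrane genes (9). Marker lists covered pluripotent cells (10), extraembryonic endoderm (12), neural cells (9), mesenchyme and smooth muscle (11), endothelium (7), leukocytes (8), platelets (5) and epithelium (7). Of the 9 neural markers 4 rose and 1 fell (44.4% and 11.1%, against 13.9% and 22.1% of all gene names). Motifs were searched on both strands of the RefSeq promoters. Protein sequences were not used here.

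The replicate numbers of the labels run from 1 to 4 in both conditions. In 27508 probes that were well above background everywhere, the deviations of same-numbered arrays from their condition mean correlated at 0.187, 0.189, 0.104 and 0.152 for numbers 1 to 4. Of the pairs with different numbers, untreated 1 with RA 4 reached 0.142 and untreated 4 with RA 3 reached 0.129, each on a shared slide. Same-numbered arrays shared a slide for numbers 1 and 2 but not for 3 and 4, so number and slide cannot be told apart for 1 and 2. Since every same-numbered pair correlated positively, the numbers were taken as a possible pairing. Unless another setting is named, the values printed come from the fit without the pairing, and the fit with the number as a block was run as an alternative. The other alternatives were quantile normalization, normexp background correction (offset 50), both together, the deposited log2 values, a filter on dim probes, the slide as a block, each slide alone, each array left out, the mean of all probes of a gene, limma's treat, and a fold change above 2. The fit was tested on simulated data, RA against untreated: of 200 probes among 55681 changed by a log2 value of 2, 160 were recovered and 10 unchanged probes were called. Far more probes (19240) were called in the data than were changed in the simulation, so these rates need not hold for the data.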

Additional observations from a re-analysis of the deposited data

Results flagged for a closer look

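Over the genes named, 134 groups of 4 arrays were examined, and in 8 of them 1 array stood apart from the other 3 by more than the 95% limit of Dixon's test allows. Chance gives this in about 1 in 20 groups, or 6.70 of 134. In Itga3, untreated array 1 was at -1.61, below the range of -0.42 to -0.30 of the other untreated arrays. In Itgb1, RA array 1 was at 3.10, above 2.74 to 2.75. In Lama3, untreated array 2 was at -1.44, below -0.59 to -0.50, and RA array 4 at -3.25, below -3.08 to -3.07. In Col4a2, RA array 1 was at 3.54, above 3.26 to 3.31. In Icam1, RA array 3 was at -0.78, above -1.85 to -1.78. These genes were called with each array left out, and each gap was smaller than the difference between the condition means of that gene. The other 2 cases lay near background. Itgax was at -5.53 on RA array 3, the only array where it was well above background, against -7.86 to -7.69. Itgbl1 was at -4.10 on untreated array 2, its only array well above background, against -7.61 to -7.11.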

How the results depend on the processing

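All 19 called genes kept their direction under every alternative, and 9 of them kept their call as well (6 higher and 3 lower). The fold change above 2, under which 14 genes of the set were called higher and 3 lower, is not part of the next counts. Over 658 values of the 35 genes under the other alternatives, 590 were on the same side of the threshold, 49 lost a call, 5 gained one and 14 changed sign. The sign changes were all in genes that were not called: Itga1 within slide 2 (-0.087) and in the mean of its probes (-0.092), Itga2 with normexp (-0.063) and within slide 1 (-0.046), Itga2b with normexp (-0.12), Itga6 within slide 2 (-0.0064), Itgax with normexp (-0.087) and within slide 1 (-0.29), and Lamc3 with normexp (-0.0062). Leaving out 1 array gave -0.37 to 0.058 for Itga10, -0.15 to 0.35 for Itga2b, -0.052 to 0.19 for Itga6 and -0.25 to 0.52 for Itgax. The genes called higher numbered 10 within slide 1, 10 within slide 2 and 10 with treat, and ranged from 11 (without untreated replicate 1) to 17 when 1 array was left out, and the genes called lower from 3 to 4. Of the related genes, 35 were called higher and 12 lower, against 21 higher within slide 2 and 7 lower within slide 1. Over the whole array, 7196 probes were called higher and 12044 lower, against 8152 and 8704 after quantile normalization; in all, 19240 were called, with 10554 within slide 1, 9417 within slide 2 and 9899 with treat. The slides alone hold 2 arrays per condition, and treat tests against a 1.5-fold change. With the replicate number as a block, 16 genes of the set were called higher and 3 lower, and the pairing changed no call of the 35 genes. Normexp and the deposited log2 values gave smaller changes for genes near background, such as Itga11, Itgb8, Itgb6, Lama2 and Itga4 (0.67 with normexp); the cause was not tested. Signals not well above background set what could be seen for Itgae, Itgax, Itgad, Itga2, Itgbl1 and Lamc3.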
